A study of Mus musculus with 36 samples.

Results

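Il2 and Il21 lie next to each other on mouse chromosome 3, and each encodes a secreted cytokine of CD4+ T cells. Chromatin accessibility at both genes was followed in an ATAC-seq series, in which the Tn5 transposase cuts open DNA and a peak marks a stretch with many cuts. The genes were represented by every peak of the series whose midpoint was nearest to a protein-coding transcription start site (TSS) of Il2 or Il21, or that overlapped the body of either gene. These were 25 of 71509 peaks, 7 assigned to Il2 and 18 to Il21, and all 25 were tested.

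The study asked how the heterochromatin proteins HP1α (HP1a) and HP1γ (HP1g) shape the response of conventional CD4+ T cells (Tconv) to regulatory T cells (Treg). It comprised 36 libraries in 12 groups of 3, formed by HP1a or HP1g line, by WT or KO genotype, and by condition: naive cells, Tconv, or Tconv transferred with Treg. In the HP1α line the floxed sequence had been removed with a CMV-cre transgene, so that KO mice (Hp1a-/-) carried the deletion in every tissue, and WT controls were Hp1a+/+ littermates. In the HP1γ line KO mice were homozygous for the floxed Hp1g allele and carried Cd4-cre, which acts in T cells from their thymic development on, and WT littermates had the floxed allele without Cre. Both lines were kept on a background mixed from 129/Sv and C57BL/6, and young adult littermates of the same sex were compared. Naive CD4+ T cells were taken from the spleen by negative selection. For the other groups, naive cells of these mice were injected into lethally irradiated hosts, either C57BL/6J mice or B6 mice carrying CD45.1, that were grafted with equal parts of C57BL/6J and semi-allogeneic B6D2F1 bone marrow, alone or with Treg expanded ex vivo from B6 Foxp3-Thy1.1 mice. The injected Treg carried neither mutation. Tconv were recovered from the spleen 3 weeks after the graft as Vβ6+ cells, a fraction that sees a superantigen of the graft donor, without the Thy1.1+ Treg. The sort took CD4+ cells of the CD45.2+ H-2Kb+ H-2Kd- type, a type that C57BL/6J marrow can also give rise to.

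Interleukin-2 is the main growth factor of activated T cells. Tconv make it on antigen contact, and Treg, which make little, take it up through the high-affinity receptor. Interleukin-21 is made chiefly by T follicular helper (Tfh) and Th17 cells, acts on B cells and on the T cells themselves, and signals through a receptor that shares the common gamma chain with that of interleukin-2. The transcription factors NFAT, AP-1 and NF-kB switch on Il2 after T cell receptor stimulation. BATF, IRF4 and c-Maf act on Il21, and Blimp-1 (Prdm1) and Aiolos (Ikzf3) repress Il2.

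Both genes are transcribed from the minus strand. In GRCm39, Il2 spans chr3:37174672-37180108 and Il21 spans chr3:37276908-37286785, with 106.7 kb between the start sites. The 25 peaks lay between chr3:37179131 and chr3:37324540, a stretch of 145.4 kb, and were 210 to 3840 bp wide with a median of 1090 bp. Il2 had 1 peak over its TSS (chr3:37179131-37181450, covering exons 1 and 2) and 6 upstream of it. Il21 had 1 peak over its TSS (chr3:37286281-37287990, covering exons 1 and 2), 10 downstream of the TSS and 7 upstream. Only 4 peaks overlapped the body of Il2 or Il21, and 11 overlapped no gene body at all. Below, a peak is named by the distance of its midpoint from its start site, upstream or downstream in the direction of transcription. The Il21 peaks 27.2, 31.0, 36.1 and 37.5 kb upstream all lay in the body of Cetn4, a neighbouring gene for a centrin of the cytoskeleton. The peak over the Il21 TSS also overlapped the bodies of Gm12534 and Gm43822. Counting genes of every type, each Il21 peak was nearest to the TSS of another gene. An Il21 peak here therefore means nearest to Il21 among protein-coding genes, or over its body, and not shown to act on it.

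The following sequences are the promoters of the 2 genes and the centres of 4 peaks on which the comparisons turned. They are those of the reference C57BL/6J genome, GRCm39, and a mixed-background mouse may differ from them. Both promoters are the 250 bases before the TSS on the minus strand, chr3:37180109-37180358 for Il2 and chr3:37286768-37287017 for the longer Il21 transcript. The 4 windows are the central 300 bases of each peak on the plus strand: chr3:37182400-37182699 (Il2 2.4 kb upstream), chr3:37311895-37312194 (Il21 25.3 kb upstream), chr3:37313775-37314074 (Il21 27.2 kb upstream) and chr3:37263685-37263984 (Il21 22.9 kb downstream). Capitals mark matches to the AP-1 motif TGANTCA and to the NFAT core GGAAA, which reads TTTCC on the other strand.
Il2 promoter: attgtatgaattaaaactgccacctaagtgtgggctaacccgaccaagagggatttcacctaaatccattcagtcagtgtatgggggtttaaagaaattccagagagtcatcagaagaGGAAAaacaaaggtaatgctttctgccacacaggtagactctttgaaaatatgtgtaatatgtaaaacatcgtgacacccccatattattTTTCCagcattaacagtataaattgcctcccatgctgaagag
Il21 promoter: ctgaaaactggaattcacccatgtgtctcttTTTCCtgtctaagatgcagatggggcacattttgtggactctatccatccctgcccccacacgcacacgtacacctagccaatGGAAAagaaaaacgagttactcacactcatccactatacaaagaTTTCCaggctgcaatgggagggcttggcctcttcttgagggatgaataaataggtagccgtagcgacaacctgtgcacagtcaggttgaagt
Il2 2.4 kb upstream: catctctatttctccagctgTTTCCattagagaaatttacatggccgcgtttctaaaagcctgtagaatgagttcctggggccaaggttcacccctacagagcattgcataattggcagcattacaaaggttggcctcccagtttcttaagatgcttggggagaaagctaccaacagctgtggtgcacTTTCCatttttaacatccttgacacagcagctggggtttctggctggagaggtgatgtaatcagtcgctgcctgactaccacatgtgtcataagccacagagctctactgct
Il21 25.3 kb upstream: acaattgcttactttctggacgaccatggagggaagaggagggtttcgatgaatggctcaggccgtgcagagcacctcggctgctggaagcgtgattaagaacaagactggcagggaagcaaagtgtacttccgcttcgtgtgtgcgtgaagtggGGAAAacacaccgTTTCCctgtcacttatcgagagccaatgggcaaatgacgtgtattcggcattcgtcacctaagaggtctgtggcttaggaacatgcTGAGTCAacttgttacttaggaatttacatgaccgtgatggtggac
Il21 27.2 kb upstream: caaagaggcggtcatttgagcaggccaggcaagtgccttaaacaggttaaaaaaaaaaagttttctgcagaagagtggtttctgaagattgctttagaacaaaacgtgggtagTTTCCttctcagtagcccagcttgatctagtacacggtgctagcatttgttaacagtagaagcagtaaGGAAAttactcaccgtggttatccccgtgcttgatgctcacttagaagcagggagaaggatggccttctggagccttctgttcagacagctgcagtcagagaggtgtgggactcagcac
Il21 22.9 kb downstream: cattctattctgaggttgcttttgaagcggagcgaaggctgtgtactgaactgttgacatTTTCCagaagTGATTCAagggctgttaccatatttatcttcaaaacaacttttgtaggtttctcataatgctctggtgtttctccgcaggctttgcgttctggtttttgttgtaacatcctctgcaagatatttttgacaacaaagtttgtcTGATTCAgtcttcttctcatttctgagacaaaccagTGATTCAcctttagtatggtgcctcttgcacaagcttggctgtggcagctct

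The Il2 promoter held 2 NFAT core matches and the Il21 promoter 3, and neither held TGANTCA. A core of these few letters is common, since 55.6% of 67400 promoters of this length had one, against 5.91% for TGANTCA. In the peak windows the AP-1 motif was found in 3 of 25 members, where 13.0% of all 71509 windows of the same length had it. Of these, the window 22.9 kb downstream of Il21 held 3 matches, and the window 25.3 kb upstream held 1 beside 2 NFAT cores. NFAT cores were in 20 of 25 member windows against 63.6% of all windows, and the RUNX motif TGTGGT was in 9 of 25 against 30.0%. Its 2 matches in the window 2.4 kb upstream of Il2 are not capitalised. A composite BATF-IRF motif and a CTCF core, searched in the same windows on both strands, had no match in any of the 25.

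Values are given as CPM, read counts in a peak scaled to a common total of reads in all peaks, with 3 libraries per group in the order of the replicate numbers unless stated. Total reads in peaks ran from 1.49 M to 96.8 M with a median of 54.8 M. The HP1α groups with Treg were the shallowest, at 1.49 M to 12.7 M in WT and 5.73 M to 50.7 M in KO. The study had set aside 3 of these 6 libraries for poor quality, namely WT replicate 3 and KO replicates 2 and 3. HP1α results with Treg therefore rest on 2 WT libraries and 1 KO library, and the main ones are also given with all libraries. With 1 library the KO group has no spread of its own, and every SE and p-value that involves it assumes that it varied like the other HP1α groups. A peak is said to have been called higher or lower where its adjusted p was under 0.05 and its log2 fold change exceeded 1 in size. Counts by another method (DESeq2), with a replicate block or with a library left out come without that fit's share over all peaks, unless stated. They may follow that share and are not read as particular to these genes. What a replicate was is not stated for every group, so that p-values describe the spread between these libraries. In bulk cells, fewer cells of a type and less accessibility per cell cannot be told apart. Of a list of 5 T cell genes, 3 had a peak at the TSS, and these summed to 73.7 to 326 CPM in every library, with 4.54 to 16.6 CPM at Cd4. The lists of other cells gave 1.73 to 16.5 CPM for B cells (1 of 5 genes with a TSS peak), 9.64 to 17.4 for myeloid cells (2 of 5), 2.26 to 8.56 for NK cells (1 of 3) and 2.42 to 12.8 for erythroid cells (2 of 3). Of the CD8 genes, Cd8b1 had a TSS peak and Cd8a none, and Cd8b1 was at 28.4 to 34.9 CPM in naive cells and at 2.62 to 9.78 CPM in transferred cells. Its part in the comparisons with naive cells was not tested. Peaks over Cbx5 and Cbx3, the genes of HP1α and HP1γ, were not called in any comparison of KO with WT, and they do not check the deletions because a promoter can stay open beside a deleted exon.

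**Figure D1:**
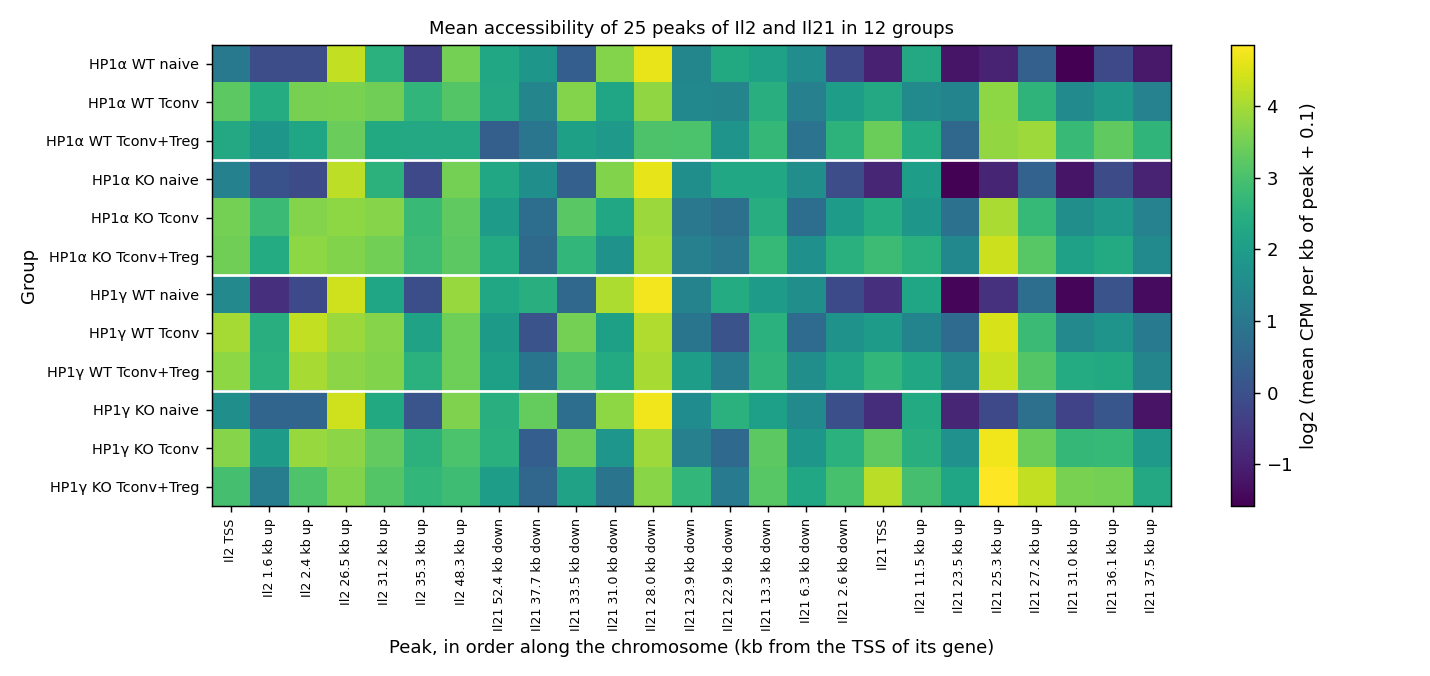
Mean accessibility of the 25 peaks (horizontal axis, genomic order) in the 12 groups (vertical axis), coloured by the log2 of CPM per kb of peak plus the constant on the colour bar; HP1α groups with Treg show the libraries kept by the study. The peaks at both start sites, 2.4 kb upstream of Il2 and 25.3 kb upstream of Il21 were low in all 4 naive groups and higher in the 8 groups of transferred cells, and the Il21 peak 28 kb downstream was the highest of the 25 in every naive group.

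The comparison of transferred Tconv with naive cells gave the most calls at these genes. In naive cells the Il2 TSS was at 4.22, 4.62 and 4.70 CPM in HP1α WT and at 5.19, 6.76 and 6.35 CPM in HP1γ WT. In Tconv it reached 29.1, 19.5 and 16.6 CPM in HP1α WT and 35.6, 37.7 and 37.2 CPM in HP1γ WT. All Tconv libraries lay above all naive libraries, with log2 fold changes of 2.35 ± 0.19 (SE, adjusted p = 1.49e-08) and 2.64 ± 0.27 (adjusted p = 5.71e-08) in the WT groups by edgeR's quasi-likelihood test with Benjamini-Hochberg adjustment. At the Il21 TSS, naive values were 0.778, 0.667 and 0.641 CPM in HP1α WT and 0.777, 0.939 and 0.963 CPM in HP1γ WT. Tconv values were 9.99, 7.53 and 7.45 CPM and 6.11, 5.77 and 7.74 CPM. Again no Tconv library fell within the naive range, and the log2 fold changes were 3.67 ± 0.28 (adjusted p = 7.52e-09) and 2.91 ± 0.37 (adjusted p = 1.01e-06).

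Over all members, 14 peaks were called higher and 2 lower in HP1α WT Tconv, where 42.5% of all peaks were called in one direction or the other. HP1α KO gave 14 and 2 against 42.6% of all peaks, HP1γ WT gave 14 and 3 against 46.5%, and HP1γ KO gave 15 and 3 against 43.0%. Calls were higher in 24.9% and lower in 17.5% of all peaks in HP1α WT, 23.5% and 19.0% in HP1α KO, 24.5% and 22.0% in HP1γ WT and 22.4% and 20.6% in HP1γ KO, so that the members' share of higher calls was above that of all peaks and their share of lower calls below it. The median log2 fold change of the 25 was 2.29, 2.00, 1.82 and 1.85 in these 4 comparisons, while that of all peaks lay between -0.05 and 0.08.

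The peak 25.3 kb upstream of Il21, singled out after its values were seen, opened most. It went from 0.975, 1.10 and 0.809 CPM in HP1γ WT naive cells to 30.8, 40.5 and 46.6 CPM in Tconv, a log2 fold change of 5.41 ± 0.32 (adjusted p = 4.9e-11), and the other 3 genotypes gave 5.16 to 5.24. In naive cells it was nearly closed in every library, and per kb of peak it was the most accessible member in HP1γ WT Tconv, at 22 CPM per kb against 15.9 for the Il2 TSS and 3.82 for the Il21 TSS. The peak 2.4 kb upstream of Il2 rose from 0.503, 0.674 and 0.571 CPM to 14.3, 14.8 and 13.7 CPM, a log2 fold change of 4.66 ± 0.30 (adjusted p = 1.63e-10).

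A group of peaks downstream of Il21 went the other way. The peak 31.0 kb downstream fell from 9.64, 10.3 and 11.5 CPM in HP1γ WT naive cells to 3.13, 3.10 and 1.57 CPM in Tconv, by 1.93 ± 0.21 on the log2 scale (adjusted p = 1.59e-07). The peak 22.9 kb downstream, whose window holds the 3 AP-1 matches and which was singled out after its values were seen, fell by 2.38 ± 0.25 (adjusted p = 9.9e-08). Both were called lower in all 4 genotypes, and the peak 37.7 kb downstream, also singled out in this way, was called lower in the HP1γ line alone; whether the lines differed there was not tested. The largest naive peak, 28 kb downstream and likewise picked from its values, was at 81.4 to 89.4 CPM on average in naive groups and at 46.1 to 56.1 CPM in Tconv, and did not pass the fold threshold in any of the 4 comparisons.

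**Figure D2:**
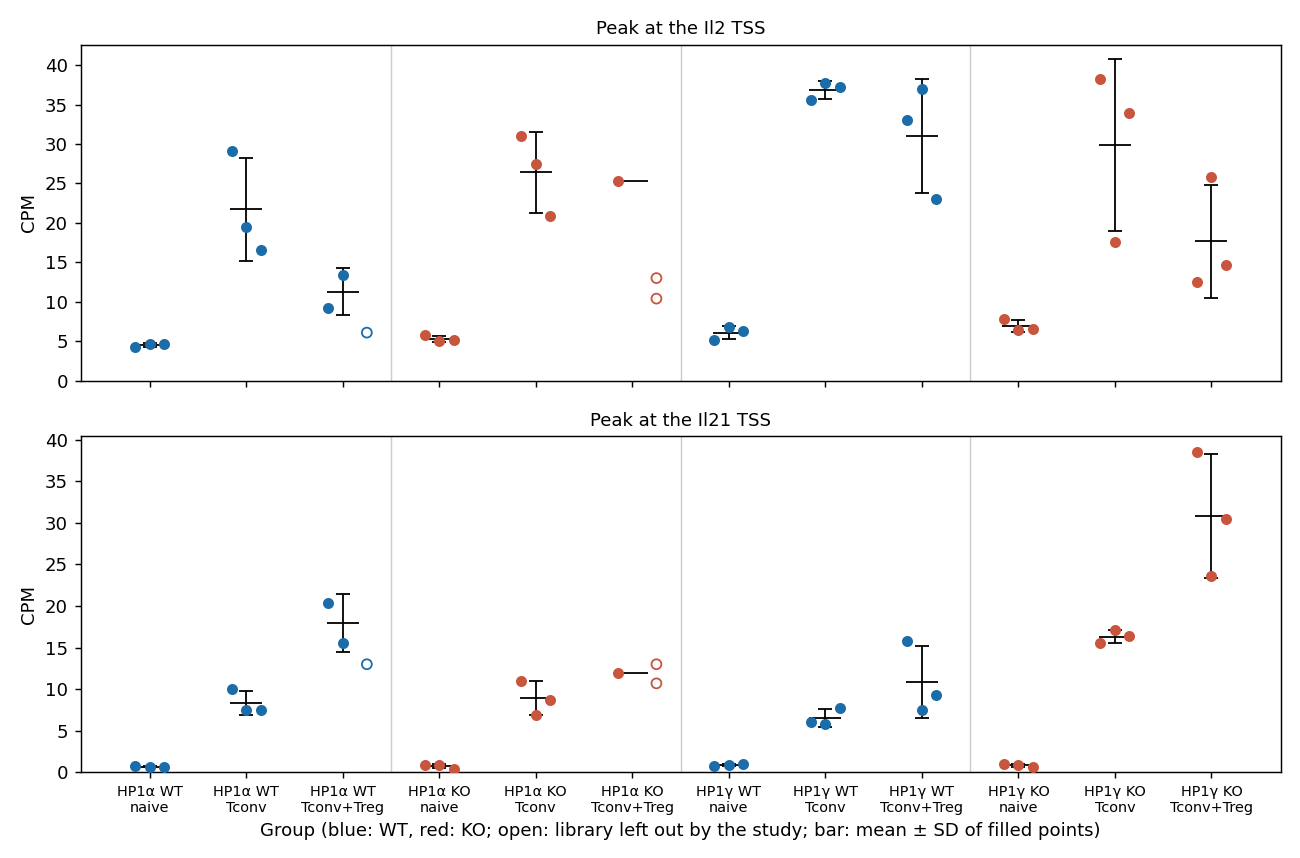
CPM at the Il2 and Il21 TSS peaks in each library of the 12 groups on a linear axis from 0; bars are means ± SD of filled points, and open points are libraries that the study set aside. The highest Il2 group was HP1γ WT Tconv with a mean of 36.8 CPM, and the highest Il21 group was HP1γ KO Tconv with Treg with a mean of 30.9 CPM.

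Ordered by mean, the Il2 TSS ran from 36.8 ± 1.06 CPM (SD, n = 3) in HP1γ WT Tconv down to 4.51 ± 0.257 CPM (n = 3) in HP1α WT naive cells. Neighbouring groups in this order overlapped in their libraries except at 2 steps, from HP1α WT Tconv with Treg (11.3 ± 3.02 CPM, n = 2) to HP1γ KO naive cells, and between the lowest pair, HP1α KO and WT naive cells. With all libraries only the step between the lowest pair was left, since the set-aside WT library lay at 6.09 CPM, below all HP1γ KO naive libraries (6.46 to 7.8 CPM). The Il21 TSS ran from 30.9 ± 7.44 CPM in HP1γ KO Tconv with Treg to 0.695 ± 0.0731 CPM in HP1α WT naive cells. It separated at 3 steps: below HP1γ KO Tconv with Treg, below HP1γ KO Tconv (16.3 ± 0.839 CPM) and between HP1γ WT Tconv (6.54 ± 1.05 CPM) and the naive groups. With all libraries the step below HP1γ KO Tconv was lost as well, as the next group, HP1α WT Tconv with Treg, then held 13.0 to 20.4 CPM. The top of the order was therefore held by different groups at the 2 genes.

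In transferred cells without Treg, the Il21 TSS and 2 of the 17 other Il21 peaks were called higher in HP1γ KO than in WT. The TSS was at 6.11, 5.77 and 7.74 CPM in WT Tconv and at 15.5, 17.1 and 16.4 CPM in KO Tconv. Every KO library was above every WT library, with a log2 fold change of 1.34 ± 0.23 (adjusted p = 0.00222). The intronic peak 6.3 kb downstream rose from 1.05, 1.0 and 1.69 CPM to 2.70, 3.24 and 2.79 CPM (1.24 ± 0.23, adjusted p = 0.00399). The peak 36.1 kb upstream, at 4.10, 5.97 and 9.76 CPM in WT and 8.67, 16.7 and 14.9 CPM in KO, overlapped between the groups but was called higher as well (1.06 ± 0.28, adjusted p = 0.0317). These 3 were the only calls among the 25 members, where 3.35% of all peaks were called, 1.69% higher. The count was 6 without KO Tconv replicate 1, and 1 when only the 2 compared groups were fitted. The Il21 peaks 28.0, 31.0 and 33.5 kb downstream had values below 0, from -0.07 to -0.34.

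The Il2 side did not pass the test in these cells. Its TSS was at 35.6, 37.7 and 37.2 CPM in WT and at 38.2, 17.6 and 33.9 CPM in KO Tconv, with 1 low KO library and a log2 fold change of -0.24 ± 0.23 (adjusted p = 0.614). None of the 7 Il2 peaks was called and 6 of them had a value below 0, with a median of -0.35, while 15 of the 18 Il21 peaks were above 0 with a median of 0.67. The median of all peaks was 0.02.

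With Treg, the HP1γ KO was called higher at the TSS and 3 upstream peaks of Il21, out of 18, and lower at 1 downstream peak of Il21 and at 1 of the 7 Il2 peaks. The Il21 TSS was at 15.8, 7.55 and 9.31 CPM in WT and at 38.5, 23.6 and 30.5 CPM in KO, with no overlap and a log2 fold change of 1.46 ± 0.20 (adjusted p = 0.000179). The peak 27.2 kb upstream rose from 22.3, 16.2 and 12.2 CPM to 44.7, 27.7 and 40.8 CPM (1.10 ± 0.20, adjusted p = 0.0013). The peak 36.1 kb upstream rose from 11.7, 8.91 and 9.59 CPM to 28.7, 17.0 and 23.7 CPM (1.20 ± 0.26, adjusted p = 0.00372). All 3 kept the KO libraries above the WT libraries. At the peak 31.0 kb upstream the groups overlapped, with 8.56, 7.28 and 4.63 CPM in WT and 27.2, 7.74 and 12.3 CPM in KO (1.16 ± 0.36, adjusted p = 0.0312).

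The peak 25.3 kb upstream, the one that opened most on transfer, was at 42.4, 42.1 and 21.2 CPM in HP1γ WT with Treg and at 61.3, 41.9 and 51.7 CPM in KO, which overlapped, with a log2 fold change of 0.51 that did not pass the test. The flanking peak 27.2 kb upstream, which adjoins it, is the one that was called. Downstream of Il21, the peak at 31.0 kb fell from 2.73, 2.85 and 3.88 CPM in WT to 0.450, 1.78 and 1.11 CPM in KO (by 1.42 ± 0.38 on the log2 scale, adjusted p = 0.015), opposite to the upstream peaks. The peak at 33.5 kb downstream was also lower, at -0.93 (adjusted p = 0.0298), under the fold threshold.

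At Il2, the small peak 1.6 kb upstream fell from 1.47, 1.07 and 1.03 CPM to 0.20, 0.564 and 0.568 CPM (by 1.52 ± 0.43 on the log2 scale, adjusted p = 0.0184). The TSS, at 33, 37.0 and 23.0 CPM in WT and 12.5, 25.8 and 14.7 CPM in KO, overlapped by 1 library. Its log2 fold change of -0.81 ± 0.26 (adjusted p = 0.0325) was under the fold threshold. The peak 2.4 kb upstream did not overlap between the groups, at 11.8, 14.1 and 9.77 CPM in WT and 4.81, 8.26 and 5.57 CPM in KO (-0.94 ± 0.23, adjusted p = 0.00791), and was also under it.

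In all, 4 members were called higher and 2 lower in HP1γ KO with Treg, where 11.9% of all peaks were called, 6.48% higher and 5.38% lower. KO and WT libraries did not overlap at 12 of 25 members, against 31.5% of all peaks. The median log2 fold change was -0.61 over the 7 Il2 peaks and 0.66 over the 18 Il21 peaks, against -0.02 over all peaks. The replicate numbers paired these libraries, and with the number as a block 5 were called higher and 2 lower. The count was 2 without KO replicate 1, the library with the highest Il21 TSS, and 11 without KO replicate 2, which had the highest Il2 TSS of its group.

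One marker gene of follicular helper cells differed between the same groups, with no test made. Of the 3 genes on that list only Cxcr5, a chemokine receptor of these cells, had a peak at its TSS, and Bcl6 and Pdcd1 had none. It was at 37.9 to 45.9 CPM in HP1γ WT Tconv and 50.5 to 83.4 CPM in KO Tconv, and at 47.2 to 65.9 CPM in WT and 114 to 154 CPM in KO with Treg. The TSS peaks of the Treg genes Foxp3 and Ikzf2 summed to 130 to 165 CPM in HP1γ WT and 171 to 178 CPM in KO with Treg. The B cell gene Pax5 was at 3.94 to 8.28 CPM in HP1γ WT and 8.02 to 10.7 CPM in KO with Treg. The part of these lists in the Il2 and Il21 results was not tested.

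**Figure D3:**
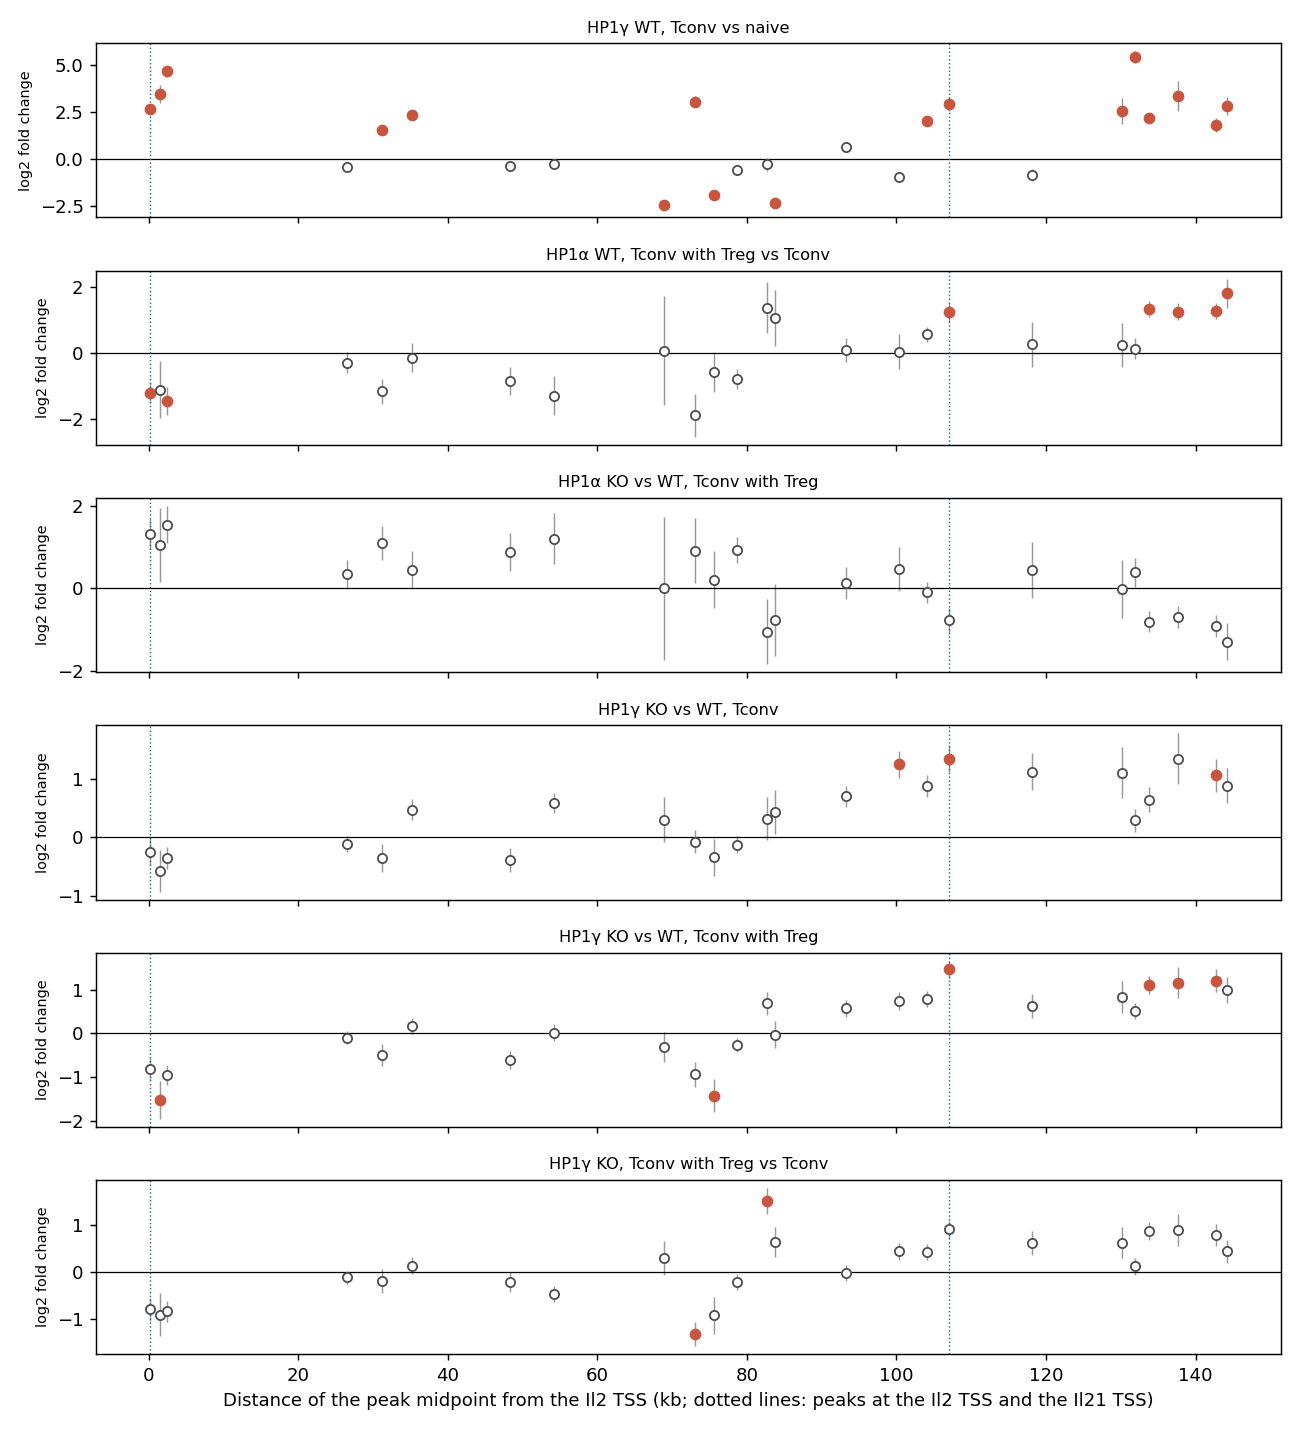
Log2 fold change (vertical axes, bars are SE) of each of the 25 peaks by distance in kb from the Il2 TSS, in 6 comparisons; filled points were called. In HP1γ KO against WT with Treg, the Il21 TSS sits at 1.46 and the Il2 TSS at -0.81, whereas in HP1α KO against WT with Treg they sit at -0.78 and 1.31 with no call.

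In naive cells the HP1γ deletion left no member past both thresholds, where 0.140% of all peaks were called. At an unadjusted p under 0.05 there was 1 member, where 6421 of 71508 peaks were. This was the peak 37.7 kb downstream of Il21 (0.91 ± 0.15, adjusted p = 0.00704), which DESeq2 called. The Il2 TSS was at 5.19, 6.76 and 6.35 CPM in WT and 7.80, 6.46 and 6.6 CPM in KO, and the Il21 TSS at 0.777, 0.939 and 0.963 CPM and 1.01, 0.886 and 0.690 CPM. Both pairs of groups overlapped. The peak 31.0 kb upstream of Il21, called higher in KO with Treg, was at 0.228, 0.436 and 0.357 CPM in WT naive cells. In KO naive cells it was at 1.04, 1.18 and 0.703 CPM, above every WT library, from 15 to 53 reads per library. It was not called, but its KO values were already higher before transfer.

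Tconv with and without Treg were then compared within each HP1γ genotype. In WT, edgeR called 0 of 25 members, where 0.137% of all peaks were called, and DESeq2 called 2. At an unadjusted p under 0.05 there were 10 members, and 14522 of 71508 peaks. The Il21 TSS gave a log2 fold change of 0.80 ± 0.25 (adjusted p = 0.129) and the Il2 TSS one of -0.22 ± 0.24 (adjusted p = 0.603). The replicate numbers paired these libraries too, and with that block 4 members were called higher, while the Il21 TSS gave 0.75 with an adjusted p of 0.0513. In KO, 1 member was called higher and 1 lower, where 8.15% of all peaks were called, 6.10% higher and 2.06% lower. The peak 33.5 kb downstream of Il21 fell from 3.82, 2.71 and 2.73 CPM to 0.749, 1.86 and 1.11 CPM (by 1.31 ± 0.26 on the log2 scale, adjusted p = 0.00258). The peak 23.9 kb downstream rose from 0.826, 0.530 and 0.527 CPM to 1.48, 2.21 and 1.60 CPM (1.5 ± 0.28, adjusted p = 0.00197). Neither peak had a library of one group within the range of the other.

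In the same KO cells the Il21 TSS was higher with Treg by 0.91 ± 0.18 (adjusted p = 0.00302) and the Il2 TSS lower, at -0.79 ± 0.25 (adjusted p = 0.0418), both under the fold threshold. The count in KO was 8 without KO replicate 2 of the Treg group, 5 without KO Tconv replicate 2 and 1 without KO replicate 1 of the Treg group, and both calls were lost when the 2 compared groups alone were fitted and with a replicate block. The test of the difference itself, genotype by Treg, gave an unadjusted p under 0.05 at 3 members and at 9150 of 71508 peaks, about the same share. It called 0 members by edgeR, where 0.00140% of all peaks were called, and 0 by DESeq2. It gave 0.12 ± 0.31 (adjusted p = 0.884) at the Il21 TSS and -0.57 ± 0.34 (adjusted p = 0.472) at the Il2 TSS, so that a different response to Treg in KO and WT was not shown. These comparisons share libraries, and their values are set side by side only.

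In the HP1α line, WT Tconv with Treg were called lower at 2 of the 7 Il2 peaks and higher at 5 of the 18 Il21 peaks than WT Tconv, a result from shallow libraries. The Il2 TSS was at 29.1, 19.5 and 16.6 CPM in WT Tconv and at 9.15 and 13.4 CPM in the 2 kept WT libraries with Treg, made of 131 and 26 reads. The groups did not overlap, and the log2 fold change was -1.20 ± 0.33 (adjusted p = 0.0335). The peak 2.4 kb upstream of Il2 went from 11.4, 6.59 and 7.45 CPM to 3.21 and 3.62 CPM, of 46 and 7 reads (-1.45 ± 0.43, adjusted p = 0.0456). WT replicate 3, set aside by the study, had 6.09 CPM at the TSS and 3.66 CPM at the upstream peak, both below every WT Tconv library.

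In the same cells the Il21 TSS and 4 peaks upstream of it were called higher. The TSS was at 9.99, 7.53 and 7.45 CPM in WT Tconv and at 20.4 and 15.5 CPM with Treg, of 292 and 30 reads (1.22 ± 0.29, adjusted p = 0.0154). The peaks 27.2 and 36.1 kb upstream rose by 1.31 ± 0.24 (adjusted p = 0.00286) and 1.25 ± 0.24 (adjusted p = 0.00439). Their Tconv values of 10.3 to 14.3 CPM and 5.62 to 8.63 CPM lay below the values with Treg of 29.1 and 30.0 CPM and of 17.6 and 21.7 CPM. The peaks 31.0 and 37.5 kb upstream were called higher as well, at 1.24 ± 0.26 (adjusted p = 0.00792) and 1.80 ± 0.44 (adjusted p = 0.0166). At the peak 25.3 kb upstream the values overlapped, with 33.5, 19.0 and 19.4 CPM in Tconv and 28 and 21.7 CPM with Treg, and the log2 fold change was 0.12. Of the 10 peaks downstream of the Il21 TSS, 6 had values above 0 (0.03 to 1.36) and 4 below it, none of them called. The peak 33.5 kb downstream had the largest change of the 25, from 3.88, 3.04 and 3.93 CPM to 0.838 and 1.55 CPM, of 12 and 3 reads (-1.89 ± 0.65, adjusted p = 0.0816). The peaks 52.4 and 28.0 kb downstream, named after their values were seen, were at -1.29 ± 0.58 (adjusted p = 0.185) and -0.79 ± 0.29 (adjusted p = 0.102). The libraries of the groups did not overlap at these 3 peaks. The peak 31.0 kb downstream, at -0.58, overlapped.

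Thus 5 members were called higher and 2 lower, where 6.77% of all peaks were called, 4.92% higher and 1.84% lower. The median was -1.11 over the Il2 peaks and 0.24 over the Il21 peaks, against 0.10 over all peaks. With all libraries 4 were called higher, all at Il21, and 2 lower, 1 at Il2 and 1 at Il21, where 7.79% of all peaks were called. The Il21 peak called lower was that 33.5 kb downstream (-1.67 ± 0.51, adjusted p = 0.0447). The Il2 TSS gave -1.37 (adjusted p = 0.0291) and the Il21 TSS 1.07 (adjusted p = 0.015), the Il2 peak at 2.4 kb was no longer called (-1.43, adjusted p = 0.0553), and the peak 27.2 kb upstream of Il21 fell to the fold threshold at 1.0. The calls rested on WT replicate 1 with Treg, the deepest of its group. Without it none of the 25 was called, with kept or with all libraries, and the kept libraries gave -0.85 at the Il2 TSS and 0.78 at the Il21 TSS. Without WT replicate 2 with Treg, or without WT Tconv replicate 1, 4 members were called, all higher.

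Beside these values, Pax5 was at 4.50 to 6.20 CPM in HP1α WT Tconv, at 12.4 to 16.5 CPM in WT with Treg and at 5.10 to 12.1 CPM in KO with Treg. The other B cell genes on the list had no TSS peak. Cxcr5, which B cells also express, was at 40.0 to 52.9 CPM in HP1α WT Tconv, 50 to 101 CPM in WT with Treg and 61.3 to 64.2 CPM in KO with Treg. The part of other cells in the result was not tested.

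HP1α KO Tconv with Treg could be compared with HP1α KO Tconv from 1 kept library. At the Il2 TSS it was at 25.3 CPM, within the range of 31.0, 27.4 and 20.9 CPM without Treg, and the log2 fold change was -0.06 ± 0.22. The value rested on this library, since the 2 set aside gave -1.12 in its place (adjusted p = 0.00928), called lower. At the Il21 TSS it was at 12 CPM against 11, 6.92 and 8.75 CPM (0.45 ± 0.24, adjusted p = 0.679). By edgeR 0 members were called, where 0.548% of all peaks were called, with 5 at an unadjusted p under 0.05 and 0 called by DESeq2. The libraries set aside had 13.0 and 10.4 CPM at the Il2 TSS, both below the kept library and below all KO Tconv libraries, and 10.7 and 13.0 CPM at the Il21 TSS. With all libraries no member was called, where 1.45% of all peaks were called, but leaving out KO replicate 1 with Treg from these gave 3 higher and 3 lower.

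Set against WT with Treg, the kept HP1α KO library had 25.3 CPM at the Il2 TSS against 9.15 and 13.4 CPM (1.31 ± 0.36, adjusted p = 0.0732) and 12 CPM at the Il21 TSS against 20.4 and 15.5 CPM (-0.78 ± 0.31, adjusted p = 0.222). All 7 Il2 peaks had values above 0, with a median of 1.04 against -0.11 over all peaks, or of 0.64 with all libraries. At the peak 2.4 kb upstream of Il2 the kept KO library was at 9.97 CPM, and the 2 set aside, at 3.27 and 3.80 CPM, lay near the 3.21 to 3.66 CPM of the 3 WT libraries. The 4 Il21 peaks from 27.2 to 37.5 kb upstream had values of -0.70 to -1.29. No member passed both thresholds by edgeR here, where again 1 library stood for the KO group. The groups did not overlap at 20 of 25 members against 66.1% of all peaks, a share that 2 libraries against 1 reach easily. With all 6 libraries this was 4 of 25 against 11.1%, no member was called where 0.741% of all peaks were, and the Il2 and Il21 TSS gave 1.14 (adjusted p = 0.233) and -0.60 (adjusted p = 0.387).

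The genotype by Treg difference in the HP1α line called 0 members, where 0.0461% of all peaks were called, with 8 at an unadjusted p under 0.05 and 0 called by DESeq2. It was 1.14 ± 0.40 (adjusted p = 0.335) at the Il2 TSS and -0.77 ± 0.37 (adjusted p = 0.491) at the Il21 TSS. Without Treg, HP1α KO and WT differed little. In Tconv the Il2 TSS gave 0.17 ± 0.17 and the Il21 TSS -0.01 ± 0.20 (both adjusted p = 0.999), with 0 members called against 0.0210% of all peaks. An unadjusted p under 0.05 was met there by 2 members and by 3450 of 71509 peaks. In naive cells they gave 0.22 ± 0.20 and 0.11 ± 0.41 (both adjusted p = 1.0), with 0 called against 0.00559% of all peaks and 0 at an unadjusted p under 0.05. DESeq2 called 0 in both.

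**Figure D4:**
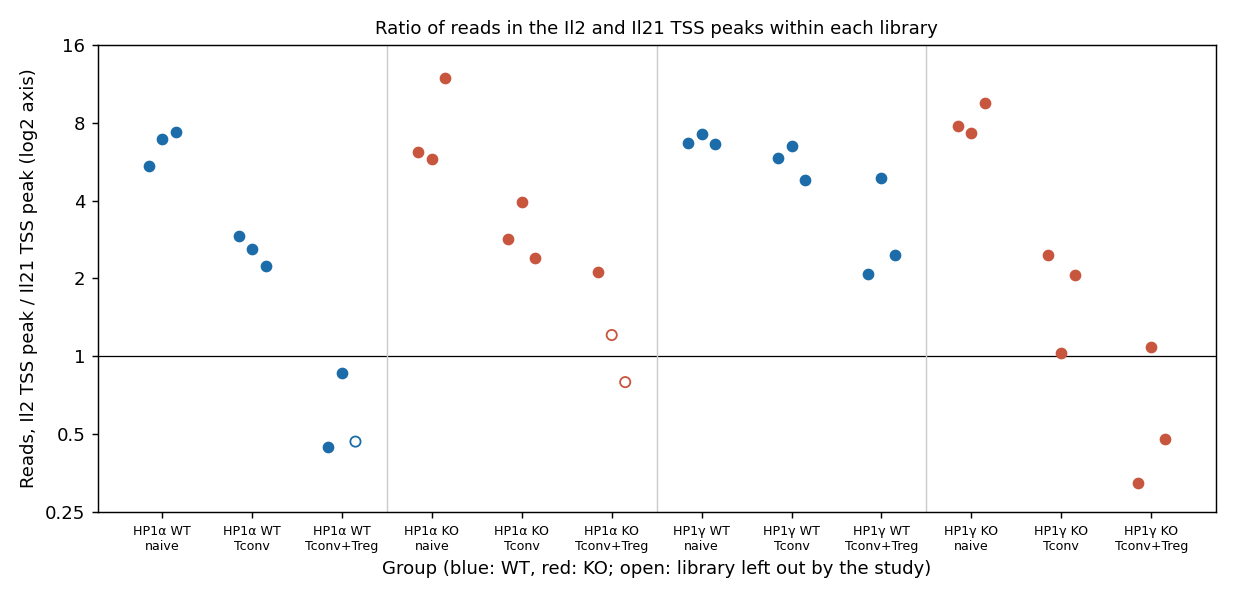
Reads at the Il2 TSS divided by reads at the Il21 TSS in each library, by group, on a log2 axis; open points are libraries that the study set aside. Naive libraries lie between 5.42 and 11.9. The lowest medians are those of HP1α WT (0.469) and HP1γ KO (0.482) Tconv with Treg. A set-aside HP1α KO library with Treg, at 0.796, lies among the values of these groups.

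The balance of the 2 genes within a library does not depend on its total. Reads at the Il2 TSS divided by reads at the Il21 TSS were 5.42 to 11.9 in all naive libraries. In Tconv the ratio was 4.80 to 6.52 in HP1γ WT with a median of 5.83, and 1.03 to 2.47 in HP1γ KO with a median of 2.06, with no overlap. With Treg it was 2.09, 2.47 and 4.90 in HP1γ WT and 0.324, 0.482 and 1.09 in HP1γ KO, again apart. In the HP1α line it was 2.23 to 2.91 in WT Tconv and 2.39 to 3.95 in KO Tconv. With Treg and all libraries it was 0.449 to 0.867 in WT and 0.796 to 2.11 in KO. The ratio compares peaks of unequal width and is read between groups only.

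Across the 12 group means the Il2 and Il21 TSS had a Pearson r of 0.803 in log2 CPM, a description over points that share lines and the naive against transferred contrast. Of 13072 TSS peaks, those most like the Il2 TSS over the 12 groups were of Fcrl2 (r = 0.984), Dpep2 (0.982), Pou5f1 (0.981), Rasgef1a (0.981) and S100a4 (0.98). Those most like the Il21 TSS were of Glt28d2 (0.996), Zbtb32 (0.992), Ciapin1 (0.991), Lag3 (0.99), an inhibitory receptor of T cells, and Fam241b (0.989). No gene was on both lists.

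Other genes of the pathway were taken from a list of 36 genes with 541 peaks. From naive cells to HP1γ WT Tconv, 225 of these were called higher and 57 lower, with a median log2 fold change of 0.62 against 0.08 over all peaks. These are 41.6% and 10.5% of the list, against 24.5% and 22.0% of all peaks. The 14 activators held 146 of the higher calls and 18 of the lower among 274 peaks. All 7 peaks of Il2rb, a signalling chain of the interleukin-2 receptor, were called higher, as were 5 of 12 at Il2ra, its high-affinity chain, where 1 was lower. None of the 17 peaks of Il21r, the interleukin-21 receptor, was called higher and 1 was lower. The 11 peaks of 4 other cytokines of the family gave 6 higher and 4 lower calls, with all 4 peaks of Il4 higher and 3 of 4 at Il9 lower.

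In HP1γ KO against WT with Treg the list gave 40 higher and 29 lower calls with a median of -0.05. At 7.39% and 5.36% of the list these shares were near the 6.48% and 5.38% of all peaks. The 37 peaks of the 4 receptor genes gave 0 higher and 5 lower, 4 of them at Il2ra and 1 at Il2rb. At Il2ra the peak with the smallest p was at -1.35 (adjusted p = 0.00213), and at Il2rb at -1.28 (adjusted p = 0.0078). The activators gave 25 higher and 17 lower calls, or 9.12% and 6.20%. Among them Batf, a factor that acts on Il21, had 4 of 17 peaks called higher and none lower, with the smallest p at 1.48 (adjusted p = 0.000122). Maf had 9 of 63 higher and 3 lower. Most of the 17 lower calls of the activators were therefore at genes other than Batf and Maf. Among the repressors, with 9 higher and 5 lower, Prdm1 had 7 of 39 higher and 2 lower. Without Treg, HP1γ KO gave 1 higher call, at Batf (1.16, adjusted p = 0.00339), and 19 lower, which is 0.185% and 3.51% of the list against 1.69% and 1.66% of all peaks. Of the lower calls, 12 were in the activators (4.38% of their peaks) and 2 in the repressors. A further 3 were at Il2ra (smallest p at -1.49, adjusted p = 0.00523) and 2 at Il4 (smallest p at -1.55, adjusted p = 0.00015).

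In HP1α WT cells the comparison of Tconv with and without Treg gave 23 higher and 16 lower calls on the list, with a median of -0.16 against 0.10 over all peaks. The shares were 4.25% and 2.96%, where 4.92% and 1.84% of all peaks were called. The receptors gave 0 higher and 5 lower, again 4 at Il2ra (smallest p at -1.55, adjusted p = 0.00439) and 1 at Il2rb (-1.74, adjusted p = 0.00731). The activators gave 17 higher and 8 lower, or 6.20% and 2.92%. Among them Maf had 11 of 63 peaks higher and none lower, with the smallest p at 2.46 (adjusted p = 0.000223), and the lower calls were all at other activators. Among the repressors, with 5 of 92 peaks higher and none lower, Prdm1 had 4 of 39 higher and none lower. In HP1α KO against WT with Treg, with 1 KO library, the list gave 3 higher and 13 lower, or 0.555% and 2.40% against 0.218% and 1.42% of all peaks.

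The genes around Il2 and Il21 were examined to see whether higher calls were confined to the members. Of 10 protein-coding genes within 500 kb of either TSS, 9 had peaks, 73 in all. Of these, 25 were nearest to Gm5148, 491.9 kb from the Il21 TSS, and 15 to Cetn4. The counts pool all 9 genes and do not give the distance over which calls were raised. From naive cells to Tconv, 31.5% (HP1γ KO) to 45.2% (HP1α WT) were called higher, against 22.4% to 24.9% of all peaks. In HP1γ KO against WT with Treg 11 of the 73 were called higher and 2 lower (15.1% and 2.74%, against 6.48% and 5.38% of all peaks), with a median of 0.26 against -0.02. In HP1α WT with Treg against without, 10 were called higher (13.7% against 4.92%) and none lower, with a median of 0.71 against 0.10. In HP1γ KO with Treg against without, 12 were higher (16.4% against 6.10%) and none lower, and in HP1γ KO against WT Tconv 1 was higher (1.37% against 1.69%) and none lower. In HP1γ WT with Treg against without, none was called in either direction, where 0.0671% of all peaks were higher and 0.0699% lower. Higher calls, on transfer and in the other comparisons with Treg given here, were therefore not confined to peaks nearest to Il21.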

How the data were processed

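ATAC-seq was performed on splenic CD4+ T cells in 36 libraries, 3 in each of 12 groups, which were assigned from the genotype and condition that the labels give. The authors deposited 1 table of raw read counts for 71512 consensus peaks. Per the submitters' notes and the study's methods, reads were trimmed with Trim Galore 0.6.7, aligned with BWA to GRCm39 and filtered with SAMtools, peaks were called with HMMRATAC, and counts were made with featureCounts 2.0.3. Counting over fixed intervals means that a change in the width of an open region is seen only as a change in reads. For this work 3 intervals of no width were left out and no column of values was unused. Depth ran from 1.49 M to 96.8 M counts per library, and intervals or p-values cover the spread between libraries only.

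Peaks were assigned by midpoint to the nearest protein-coding TSS of the GENCODE annotation. Counts were fitted per line with edgeR 4.0.16 in R 4.3.3 (filterByExpr, TMM normalization, 1 mean per group, glmQLFit and glmQLFTest), which kept 71509 peaks for HP1α and 71508 for HP1γ, with Benjamini-Hochberg adjustment over all of them. Libraries of a group varied with a biological coefficient of 26.6% (HP1α), 30.6% (HP1α with every library) and 22.2% (HP1γ). A call needed both an adjusted p below 0.05 and a log2 fold change of more than 1 in size. The SE of a log2 fold change was worked back from the test, as its size divided by the square root of the F statistic. CPM are counts scaled to a common library total after TMM normalization, and log2 CPM used a prior count of 2. Named peaks were those at either TSS and those called in a comparison of genotypes or of Treg exposure, and any other is said to have been chosen after its values were seen. The members, gene lists and tests were chosen with earlier results of these data known.

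The fit was tested on simulated counts for the HP1γ comparison of KO and WT Tconv with Treg over 71508 peaks, where it recovered 99.5% of 200 peaks changed by 2 on the log2 scale, with 11 false calls. Every simulated peak had the same dispersion. The test therefore does not show recovery of changes near the threshold of 1, or in the HP1α groups with Treg. Same-numbered libraries were taken as paired where all 3 correlations of their deviations from the group means exceeded 0.1. This held for HP1α KO against WT naive cells (0.250 to 0.503), HP1γ KO against WT with Treg (0.147 to 0.323) and HP1γ WT with against without Treg (0.202 to 0.286). What a replicate number stands for is not given in the labels. Alternatives were library size alone, loess offsets, no filter, fits of the compared groups only, log2 depth as a covariate, a replicate block, all HP1α libraries, each library left out, and DESeq2 1.42.0. The quasi-likelihood method of edgeR version 3, all HP1α libraries with each left out or with depth, and the difference between lines were added after the data were seen. Sequences are from GRCm39, and figures were drawn with matplotlib 3.10.9 in Python 3.11.15.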

Additional observations from a re-analysis of the deposited data

Results flagged for a closer look

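The HP1α and HP1γ deletions were compared with each other in Tconv with Treg, as the difference between the 2 KO against WT log2 fold changes in 1 fit over 33 libraries. In this test, which was added after the data were seen, 7 of 25 members were called, 3 higher and 4 lower, where 11.1% of 71509 peaks were called. At Il2 the difference, HP1α minus HP1γ, was 2.21 ± 0.57 at the TSS (SE, adjusted p = 0.0114 by edgeR's quasi-likelihood test), from 1.31 in HP1α and -0.81 in HP1γ. It was 2.57 ± 0.57 at the peak 2.4 kb upstream (adjusted p = 0.0036). At Il21 it was 1.29 ± 0.39 at the peak 28 kb downstream (adjusted p = 0.0272) and -2.17 ± 0.45 at the TSS (adjusted p = 0.00196), from -0.78 in HP1α and 1.46 in HP1γ. The peaks upstream of Il21 gave -1.84 ± 0.40 at 27.2 kb (adjusted p = 0.00339), -2.02 ± 0.50 at 36.1 kb (adjusted p = 0.00831) and -2.20 ± 0.59 at 37.5 kb (adjusted p = 0.0132).

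The HP1α effect in this difference comes from 1 KO library and 2 WT libraries, and was not itself called at any member. The SE and p-values therefore assume that the lone KO library varied like the other groups. It had 25.3 CPM at the Il2 TSS, against 13.0 and 10.4 CPM in the 2 KO libraries set aside. Without HP1α WT replicate 1 with Treg, 0 of the 25 members were called, where 0.00559% of all peaks were called. The other settings tried gave 5 to 12 members. With all 36 libraries 8 were called, the Il2 TSS gave 1.96 (adjusted p = 0.014), the Il21 TSS -2.10 (adjusted p = 0.000372), and the peak 28 kb downstream was no longer called (0.82, adjusted p = 0.151). Depth in these groups was 1.49 M to 12.7 M reads in HP1α WT, 5.73 M to 50.7 M in HP1α KO, 19.4 M to 51.7 M in HP1γ WT and 39.6 M to 64.2 M in HP1γ KO. The lines also differ in the Cre driver and in their control mice, and any difference between the lines in handling cannot be told apart from the gene deleted.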

How the results depend on the processing

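Of 53 log2 values recomputed under 876 alternatives in all, 760 kept their direction and side of the threshold, 88 lost the call, 11 gained it and 17 turned in direction. The comparisons of Tconv with naive cells and both genotype by Treg differences kept their counts within 1.5 times under every alternative run. For HP1α KO against WT with Treg, 1 member was called with library size alone, 1 with a replicate block and all libraries, 2 with DESeq2, and 0 to 1 with a library left out. For HP1α WT with against without Treg, log2 depth as a covariate gave 4 and a replicate block 0 (its 2 pairs did not deviate together), and leaving out a library gave 0 to 8. HP1α KO with against without Treg gave 0 to 6. In HP1γ, KO against WT naive cells gave 1 with the compared groups only, 1 with a replicate block and 1 with DESeq2. KO against WT Tconv gave 1 with the compared groups only, 6 with a replicate block, 5 with DESeq2 and 2 to 6 with a library left out. KO against WT with Treg gave 3 with the compared groups only and 2 to 11 with a library left out. WT with against without Treg gave 4 with a replicate block, 2 with DESeq2 and 0 to 3 with a library left out. KO with against without Treg gave 0 with the compared groups only, 0 with a replicate block and 1 to 8 with a library left out. The block changed no count in the paired HP1α naive cells. The share of all peaks called under each of these settings is not given, so a change in count may follow the general rate of calls. The cause was not tested in any of these.

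None of the 17 values that turned in direction was called. At the Il21 TSS, HP1α KO against WT naive cells gave -0.06 to 0.39 with a library left out. HP1α KO against WT Tconv gave 0.07 with loess offsets, 0.03 with all libraries, 0.08 with the older quasi-likelihood method, 0.07 with a replicate block, 0.10 with DESeq2 and -0.23 to 0.25 with a library left out. HP1γ KO against WT naive cells gave -0.24 to 0.11, and the HP1γ genotype by Treg difference gave -0.03 with library size alone and -0.0035 with depth as a covariate, and -0.13 to 0.60 with a library left out. At the Il2 TSS, HP1α KO with against without Treg gave -0.17 to 0.07 with a library left out, or -1.12, called lower, without KO replicate 1 with Treg when all other libraries were used, and HP1γ WT with against without Treg gave 0.05 with depth as a covariate. With the nearest TSS of any gene type, 6 of the 25 peaks stayed members. These were the Il2 TSS and the peaks 1.6 and 2.4 kb upstream of it, and the peaks over the body of Il21 (the TSS, 2.6 and 6.3 kb downstream). The peaks upstream of Il21 that were called in the results above were not among them. The HP1α comparisons with Treg are limited by depth, down to 26 reads at the Il2 TSS in a kept library, and by the single kept KO library.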
